A study of Mus musculus with 10 samples.

Results

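The outer segment of a photoreceptor is a modified cilium packed with discs of membrane, and its proteins hold the discs, the axoneme and the surrounding matrix in shape. Of the genes that encode such proteins, 10, *Prph2*, *Rom1*, *Prom1*, *Cdhr1*, *Rp1*, *Rp1l1*, *Fscn2*, *Impg1*, *Impg2* and *Tulp1*, were taken by name from a table of 54532 genes with their levels in FPKM (sequenced fragments per kilobase of a gene's length, relative to the depth of the library). All 10 were found, and all 10 passed the filter on low values, as did 24508 genes in all. The RNA came from neural retina of BALB/c mice, an inbred albino strain whose eyes lack the pigment that shades the retina. Every mouse was 2 months old and spent 12 hr in the dark beforehand. The 5 normal light (NL) samples, numbered 1, 4, 5, 7 and 8, then had 200 lux for 1 day, and the 5 light damage (LD) samples, numbered 1, 4, 6, 7 and 8, had 15000 lux for the same time. The labels name no allele or agent beyond the strain and the light. The comparison of LD with NL asked which transcripts differ after bright light.

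Outer segments are renewed throughout life. New discs form at the base from membrane of the connecting cilium, and old discs are shed at the tip and taken up by the pigment epithelium. Mutations in several of these genes are known causes of inherited photoreceptor degeneration, and light damage in albino rodents is a standard model of photoreceptor loss.

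The retinas gave 21.3 to 26.8 M reads under NL and 19.0 to 23.4 M after LD, and the 10 genes had between 300 and 87269 reads in a retina, so counting error was small beside the spread between retinas. Together they took 1.13 to 1.20% of the reads of an NL retina and 0.378 to 0.755% of those of an LD retina. As a check of the tissue, the summed FPKM of 8 rod markers was 8068 to 9881 under NL and 1192 to 2409 after LD, while 6 lens markers summed to at most 0.937 FPKM in any retina. The LD samples 4 and 6 were the lowest pair of LD retinas in all 10 genes and were also closer to each other in their reads than most pairs. Compared by their reads, LD-4 with LD-6, NL-5 with NL-7 and LD-1 with LD-7 had a chi-square per gene of 2.65 to 3.65, and the other 17 of the 20 pairs within a group had 12.2 to 43.4. The results are therefore also given without LD-4 and LD-6 where that changes a call. This alternative was chosen after the values were seen, and since it removes the lowest LD values of each of the 10 genes it raises their LD means by construction. The p-values treat the 10 samples as separate animals, which the labels do not spell out, so they measure only the spread between these samples. Positions of genes are on GRCm38 throughout.

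The groups were compared with limma, and a gene was called when its adjusted p was under 0.01 and it changed more than 2-fold. By this rule, 7 of the 10 genes were lower after LD and none was higher. The 7 were *Prph2*, *Fscn2*, *Rom1*, *Rp1*, *Rp1l1*, *Tulp1* and *Cdhr1*, with log2 fold changes from -2.13 to -1.26. Of all genes tested, 2.37% were lower and 4.13% were higher by the same rule. *Prom1*, *Impg1* and *Impg2* did not pass it, and *Impg2* was the only member with a positive log2 fold change. The median over the 10 genes was -1.36 on the log2 scale, beside -0.012 over all genes tested. In whole-retina RNA, fewer cells of a type and less RNA per cell cannot be told apart. Each of the 8 rod markers was lower after LD by the same rule, with a mean of -2.17.

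**Figure D1:**
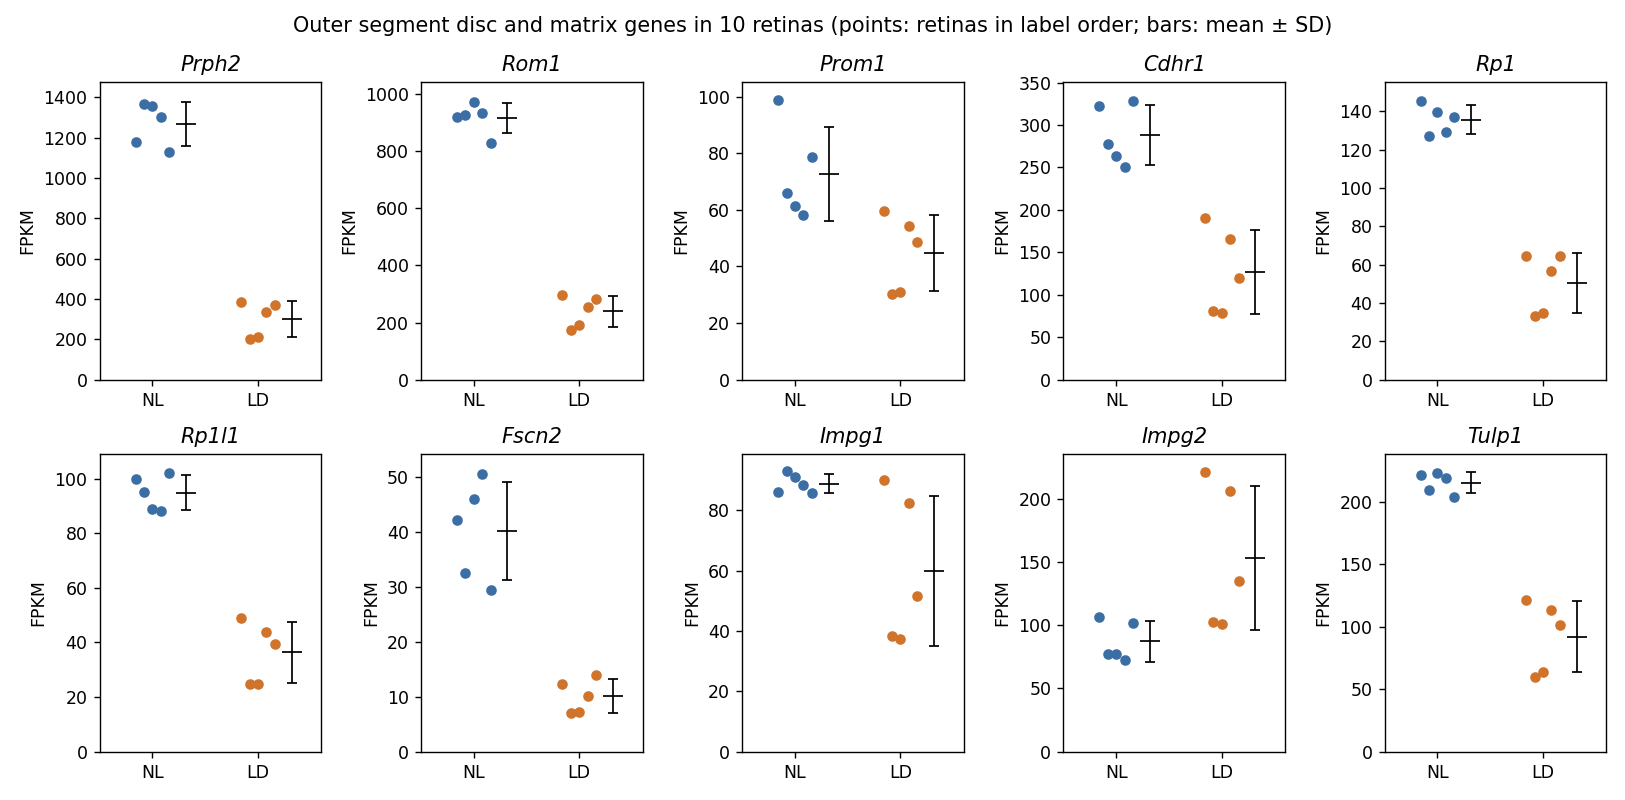
FPKM of each of the 10 genes (y axis, linear, a scale of its own in each panel) in the 5 NL and 5 LD retinas (points, in label order within a group), with the mean and SD of each group beside them. In 7 panels every LD point lies under every NL point, in those of *Prom1* and *Impg1* 4 of the 5 do, and in that of *Impg2* 3 of the 5 LD points lie above every NL point.

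Promoter sequence is shown for 4 genes, the rim genes *Prph2* and *Rom1*, whose changes were nearly equal, and the matrix genes *Impg1* and *Impg2*, whose changes had opposite signs. The RefSeq table of promoters on GRCm38.p6 held windows of 250 bases before to 50 bases after the start for 8 of the 10 genes, 9 windows in all, and *Rp1* and *Rp1l1* were not among them. Each line gives 150 bases that end where the gene begins, 5′ to 3′ on the gene's own strand, with the letters TAATC or their reverse complement GATTA in capitals. TAATC forms the first 5 letters of TAATCC, the core bound by the photoreceptor factors CRX and OTX2, and was searched only after the values were seen. The stretches lie at chr17:46910309-46910458 on the plus strand for *Prph2*, chr19:8929357-8929506 on the minus strand for *Rom1*, chr9:80465482-80465631 on the minus strand for *Impg1* and chr16:56204163-56204312 on the plus strand for *Impg2*.
Prph2: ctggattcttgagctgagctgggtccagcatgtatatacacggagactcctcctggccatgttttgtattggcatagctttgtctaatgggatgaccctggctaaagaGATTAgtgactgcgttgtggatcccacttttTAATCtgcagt
Rom1: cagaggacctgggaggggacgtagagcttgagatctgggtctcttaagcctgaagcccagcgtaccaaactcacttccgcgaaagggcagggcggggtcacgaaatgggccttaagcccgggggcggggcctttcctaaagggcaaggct
Impg1: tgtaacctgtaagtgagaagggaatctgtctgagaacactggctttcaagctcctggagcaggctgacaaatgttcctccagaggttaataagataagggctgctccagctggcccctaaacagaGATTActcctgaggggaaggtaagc
Impg2: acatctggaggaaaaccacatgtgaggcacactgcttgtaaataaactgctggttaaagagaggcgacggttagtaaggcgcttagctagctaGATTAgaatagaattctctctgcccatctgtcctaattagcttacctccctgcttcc
The lines of *Prph2*, *Impg1* and *Impg2* hold these letters and that of *Rom1* does not. Upstream of the RefSeq start, 4 of the 9 windows (those of *Impg1*, *Impg2*, *Prph2* and 1 of the 2 of *Prom1*) held TAATC on either strand, as did 19.8% of all 32851 windows. The shares that follow are of whole windows, with the bases after the start. There TAATC was in 5 of the 9, with that of *Tulp1* added, and in 22.0% of all. The full TAATCC, which contains TAATC, was in 0 of the 9 windows and in 7.06% of all. TGCTGA, a site of the rod factor NRL and its relatives, was in 0 of the 9 and in 19.5% of all. CACCTG, an E-box, was in 2 of the 9, those of *Cdhr1* and *Prom1*, and in 20.2% of all. *Prph2*, which was lower after LD, and *Impg2*, which was not, both held TAATC, and a match in a window is only a description.

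*Prph2* and *Rom1* encode tetraspanins that assemble with each other at the rims of discs and keep the sharp bend of the rim membrane. *Prph2*, at chr17:46910459-46924933 on the plus strand, had the highest level of the 10 genes in either group. Under NL its level was 1177, 1369, 1356, 1303 and 1127 FPKM in retinas 1, 4, 5, 7 and 8, with a mean of 1266 ± 109 (SD, n = 5). After LD it was 385, 200.5, 211, 335 and 370.4 FPKM in retinas 1, 4, 6, 7 and 8, with a mean of 301 ± 88.4 (SD, n = 5). The groups were far apart, and LD-4 and LD-6 were the lowest retinas. The log2 fold change was -2.13 (limma, SE, the standard error, 0.20, adjusted p = 2.84e-05), and only 0.518% of all genes tested had a log2 fold change that low.

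*Rom1*, at chr19:8927382-8929356 on the minus strand, was at 919, 927, 973, 935 and 828 FPKM in the NL retinas, with a mean of 917 ± 53.4 (SD, n = 5). In the LD retinas it was at 296, 173, 191, 254 and 281 FPKM, with a mean of 239 ± 54.5 (SD, n = 5). The order of the LD retinas was that of *Prph2*. This was a log2 fold change of -1.97 (limma, SE 0.15, adjusted p = 7.68e-06), so that 26.1% of the NL mean remained, against 23.7% for *Prph2*. In each of the 10 retinas *Prph2* was above *Rom1*, with an FPKM ratio of 1.38 ± 0.0705 (SD, n = 5) under NL and 1.24 ± 0.101 (SD, n = 5) after LD. The ratios of the groups overlapped, at 1.28 to 1.48 and 1.11 to 1.32, and the log2 ratio fell by 0.16 (two-sided exact permutation test, p = 0.0317, adjusted p = 0.0423 over the 4 pairs of genes compared). The ratio was lowest in LD-4 and LD-6, at 1.16 and 1.11, and without these retinas the difference was -0.07 with an adjusted p of 0.167 by the exact test. In 6 of the 10 fits that left out a retina it also missed an adjusted p of 0.05.

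*Prom1* and *Cdhr1* act at the base of the outer segment, where discs are still open to the outside. *Prom1* encodes prominin, a cholesterol-binding membrane protein of protrusions, and *Cdhr1* a photoreceptor cadherin at the edge of nascent discs. *Cdhr1*, at chr14:37077857-37098347 on the minus strand, was at 322, 278, 263, 251 and 328 FPKM under NL and at 190.1, 81.5, 78.6, 165 and 120.0 FPKM after LD. No LD retina reached the NL range, although the LD values spread more than 2-fold among themselves. The means were 288 ± 34.9 and 127 ± 49.8 FPKM (SD, n = 5 each), with a log2 fold change of -1.26 (limma, SE 0.24, adjusted p = 0.00275). Without LD-4 and LD-6 the log2 fold change of *Cdhr1* was -0.88 (adjusted p = 0.00449), under the 2-fold limit. When the closest pairs were averaged, *Cdhr1* had an adjusted p of 0.0109, on the other side of the 0.01 threshold.

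*Prom1*, at chr5:43993620-44102032 on the minus strand, was at 98.8, 65.8, 61.4, 58.2 and 78.7 FPKM in the NL retinas and at 59.6, 30.2, 30.9, 54.4 and 48.7 FPKM in the LD retinas. LD-1 lay inside the NL range, and the other 4 LD retinas were below it. The means of 72.6 ± 16.6 and 44.8 ± 13.5 FPKM (SD, n = 5 each) gave a log2 fold change of -0.72 (limma, SE 0.22, adjusted p = 0.0311), under 2-fold. Reads of *Prom1* may be shared with *Gm16401*, an antisense gene at its 5′ end, and *Gm42716*, a transcript on its own strand, since the use of strand in the counting is not given in the sources used here. They were far lower than *Prom1*, with NL means of 7.09 and 2.71 FPKM and LD means of 4.30 and 1.36 FPKM. The *Prom1* to *Cdhr1* ratio was 0.307, 0.237, 0.233, 0.232 and 0.240 in the NL retinas and 0.314, 0.371, 0.394, 0.329 and 0.406 in the LD retinas. Every LD ratio was above every NL ratio, though LD-1 only just exceeded NL-1. The log2 ratio was 0.54 higher after LD (exact permutation test, two-sided, p = 0.00794, adjusted p = 0.0159 over 4 pairs), so that *Cdhr1* lost a larger share of its level than *Prom1*.

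*Rp1* and *Rp1l1* encode proteins with doublecortin domains that bind the microtubules of the axoneme and help to stack and align the discs. *Rp1*, at chr1:3999557-4409241 on the minus strand, was at 145, 127, 139, 129 and 137 FPKM under NL and at 64.3, 33.1, 34.7, 56.5 and 64.6 FPKM after LD. The NL retinas were nearly alike, and the LD retinas fell into a lower pair and a group of 3 at similar levels. The log2 fold change was -1.48 (limma, SE 0.19, adjusted p = 2.58e-04). *Rp1l1*, at chr14:63992506-64035025 on the plus strand, was at 99.9, 95.3, 88.9, 88.1 and 102 FPKM under NL and at 49.1, 24.6, 24.8, 44.0 and 39.3 FPKM after LD, with a log2 fold change of -1.44 (limma, SE 0.19, adjusted p = 2.72e-04). The levels that remained were close, at 37.3% of the NL mean for *Rp1* and 38.3% for *Rp1l1*. The *Rp1* to *Rp1l1* ratio was 1.43 ± 0.0986 under NL and 1.40 ± 0.146 after LD (SD, n = 5 each), and the log2 difference of -0.04 was smaller than the spread between retinas (p = 0.603, two-sided exact permutation test). The transcripts *Gm6101* and *Gm37483* lie within *Rp1* on the same strand and had NL means of 0.135 and 0.136 FPKM.

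*Fscn2* encodes retinal fascin, which bundles actin filaments, and *Tulp1* a tubby-like protein needed to carry cargo to the outer segment. *Fscn2*, at chr11:120361534-120368168 on the plus strand, had the lowest level of the 10 genes, at 42.2, 32.5, 46.0, 50.5 and 29.4 FPKM under NL and 12.3, 7.01, 7.20, 10.1 and 13.9 FPKM after LD. Its LD values rested on 300 to 655 reads each. The groups did not overlap, and 25.2% of the NL mean remained (log2 fold change -2.00, limma, SE 0.22, adjusted p = 7.67e-05). *Tulp1*, at chr17:28351515-28365222 on the minus strand, was nearly constant under NL at 221, 209.5, 223, 219 and 204 FPKM and was at 121, 59.6, 63.6, 113 and 101 FPKM after LD. The drop was -1.29 on the log2 scale (limma, SE 0.19, adjusted p = 6.40e-04). Without LD-4 and LD-6 it was -0.94 (adjusted p = 3.27e-05), under the 2-fold limit.

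*Impg1* and *Impg2* encode proteoglycans of the interphotoreceptor matrix, which surrounds the outer segments and binds hyaluronan, and IMPG2 spans the membrane while IMPG1 is secreted. *Impg1*, at chr9:80313330-80465481 on the minus strand, was at 86.1, 93.1, 91.1, 88.3 and 85.8 FPKM in the NL retinas, the narrowest spread of the 10 genes. In the LD retinas it was at 90.0, 38.3, 37.4, 82.5 and 51.5 FPKM. LD-1 was within the NL range and LD-7 just under it, while LD-4, LD-6 and LD-8 were far below. The log2 fold change of -0.67 had a standard error of 0.24 and an adjusted p of 0.0597 in limma (exact permutation p = 0.0397), and without LD-4 and LD-6 it was -0.29 (adjusted p = 0.249). The pseudogene *Gm18292* lies in *Impg1* on the opposite strand, with means of 1.62 FPKM under NL and 0.913 FPKM after LD.

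*Impg2*, at chr16:56204313-56273756 on the plus strand, was at 107, 76.9, 77.4, 72.6 and 102 FPKM in the NL retinas and at 221, 103, 101, 206 and 135 FPKM in the LD retinas. LD-1, LD-7 and LD-8 were above every NL retina, and LD-4 and LD-6 were near NL-1 and NL-8. The means were 87.1 ± 15.9 and 153 ± 57.2 FPKM (SD, n = 5 each), and the log2 fold change of 0.75 had a standard error of 0.24 and an adjusted p of 0.0366 in limma (exact permutation p = 0.0397). *Impg2* therefore missed the threshold. With the closest pairs averaged its log2 fold change was 0.69 with an adjusted p of 0.107, and without LD-4 and LD-6, its lowest LD values, it was 1.09 with an adjusted p of 0.00435. At an adjusted p under 0.05 with no minimum fold, 14.5% of all genes tested were higher and 13.4% were lower, and among the 10 genes *Impg2* was higher and 8 were lower. The place of *Impg2* and *Prom1* in these counts was not stable, since either missed 0.05 in 9 of 23 alternatives, among them 6 of the 10 fits without a retina for *Impg2* and 4 of the 10 for *Prom1*.

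Of the 4 ratios, that of *Impg1* to *Impg2* had the largest difference between the groups. It was 0.807, 1.21, 1.18, 1.22 and 0.841 in the NL retinas and 0.406, 0.373, 0.372, 0.400 and 0.381 in the LD retinas. The NL ratios fell into a group of 3 above 1 and a pair (NL-1 and NL-8) under it, whereas the 5 LD ratios were almost equal although either gene alone varied more than 2-fold among these retinas. The mean ratio was 1.05 ± 0.207 under NL and 0.386 ± 0.0159 after LD (SD, n = 5 each). The log2 ratio fell by 1.42 (two-sided exact permutation test, p = 0.00794, adjusted p = 0.0159 over 4 pairs), and it fell by between 1.36 and 1.51 when each retina was left out in turn.

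**Figure D2:**
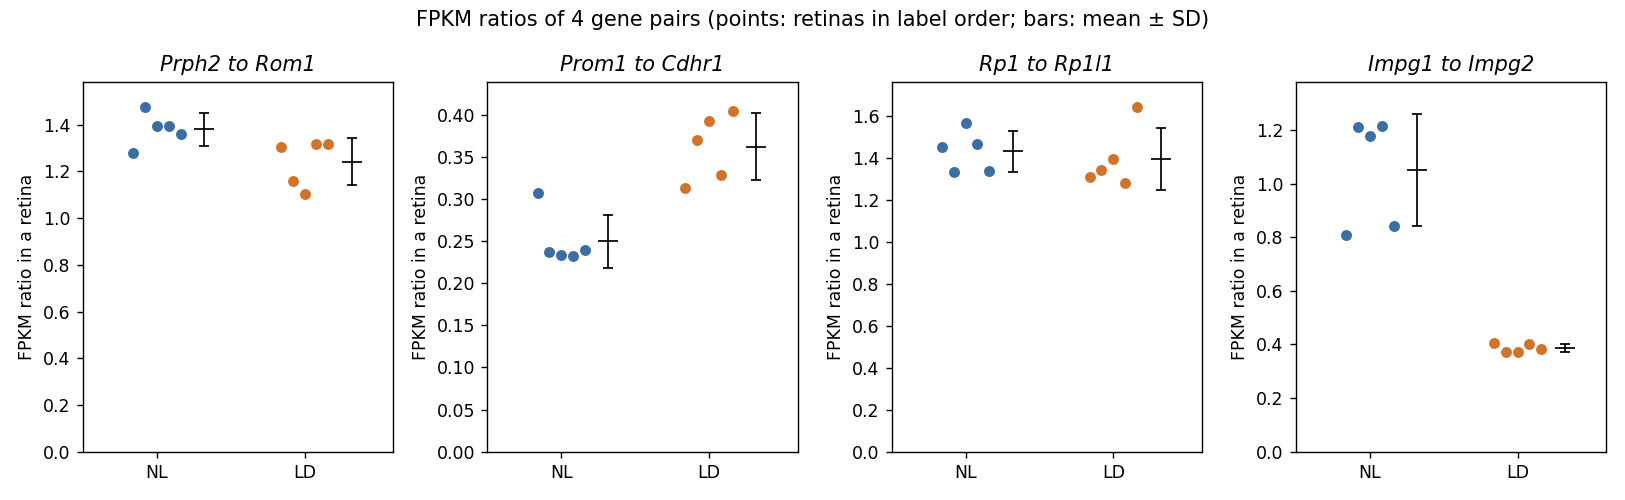
Ratio of the FPKM values of the 2 genes of a pair within each retina (y axis, linear, from 0), for 5 NL and 5 LD retinas (points, in label order) with the mean and SD beside them. The *Impg1* to *Impg2* ratio lies between 0.807 and 1.22 in the NL and between 0.372 and 0.406 in the LD retinas, with no overlap, while the *Rp1* to *Rp1l1* ratios of the groups overlap.

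Across all genes tested, 10.6% had every LD retina below every NL retina. Among the 10 genes 7 did, the same 7 that passed the limma threshold, each with the smallest exact permutation p of 0.00794 for 5 against 5 retinas. These genes are all expressed by photoreceptors, so they are not separate observations of the change.

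**Figure D3:**
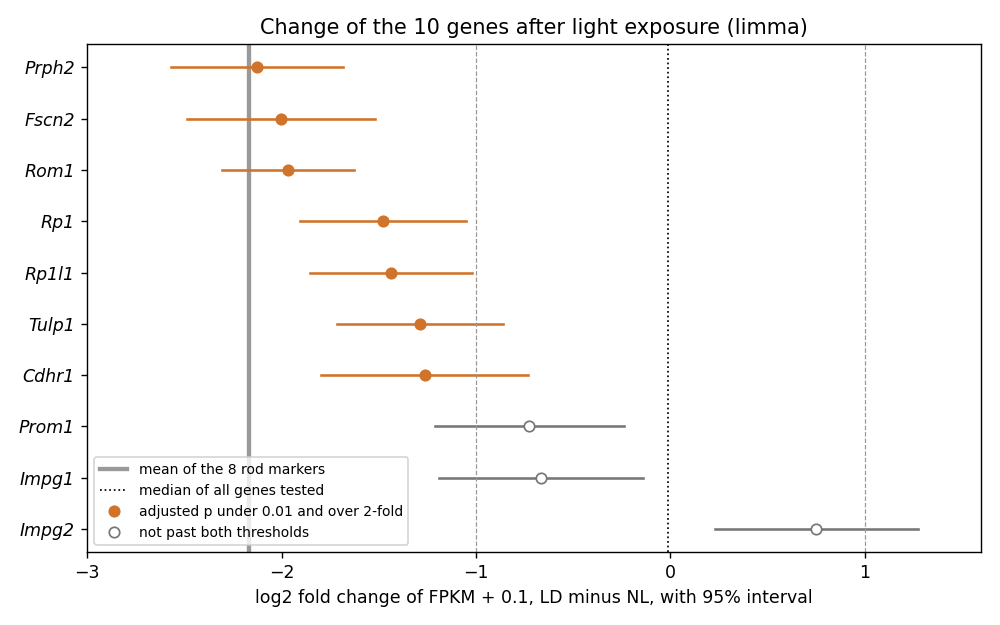
Log2 fold change of FPKM + 0.1 (x axis, LD minus NL) of the 10 genes with 95% intervals from limma. Filled points passed an adjusted p of 0.01 and 2-fold, the solid grey line is the mean of the 8 rod markers at -2.17, the dotted line is the median of all genes tested and the dashed lines mark 2-fold. The intervals of *Prph2*, *Fscn2* and *Rom1* cross the grey line and *Impg2* lies on the other side of 0.

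To compare the genes with rods, the mean log2 value of the 8 rod markers in the same retina was subtracted and the model was fitted again over all genes. The rod markers, such as *Nrl*, *Gnat1* and *Pde6b*, include none of the 10 genes and changed by -2.17 on average. The differences from this mean did not pass for *Prph2*, at 0.04 (95% interval -0.36 to 0.44, adjusted p = 0.831), for *Fscn2*, at 0.16 (-0.21 to 0.54, adjusted p = 0.363), and for *Rom1*, at 0.20 (-0.19 to 0.59, adjusted p = 0.301). These 3 differences depended on the reference. The other reference was the median level of the 8 markers within each retina, not the median of their changes. By mean FPKM, *Pde6a* and *Pde6b* stood in the middle, with changes of -1.26 and -2.06, so this reference fell less. Against it the differences turned negative, at -0.46 for *Prph2* (-0.86 to -0.07, adjusted p = 0.0266), -0.34 for *Fscn2* (-0.71 to 0.03, adjusted p = 0.0697) and -0.31 for *Rom1* (-0.68 to 0.07, adjusted p = 0.105), again with none called. The median change of the 8 markers was -2.26, and the 3 genes fell less than that. The other 7 genes were higher relative to the rod markers at an adjusted p under 0.01, but so were 94.3% of all genes tested, since the reference itself was lower after LD.

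These 7 genes differed from the rod mean by different amounts. The axoneme genes *Rp1* and *Rp1l1* were at 0.69 and 0.73 (adjusted p = 4.14e-04 and 3.48e-04), *Tulp1* at 0.88 (adjusted p = 5.94e-05) and *Cdhr1* at 0.90 (adjusted p = 3.12e-04). *Prom1* was at 1.44 (adjusted p = 2.13e-06), *Impg1* at 1.50 (adjusted p = 8.52e-07) and *Impg2* at 2.92 (adjusted p = 1.61e-08). The members with the highest values relative to rods were thus the matrix genes and prominin. The median over all genes tested was 2.15 on this scale, so *Prom1* and *Impg1* lay below the typical gene and *Impg2* above it. With the median level of the rod markers in each retina in place of their mean, a reference that fell less, only *Prom1*, *Impg1* and *Impg2* passed. Against that reference 21581 of the 24508 genes tested were also higher at an adjusted p under 0.01, so passing does not set these 3 apart. Leaving out LD-4 and LD-6 moved no difference by more than 0.10, and 7 genes still passed.

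The order of the levels also differed between the groups. Under NL it ran *Prph2*, *Rom1*, *Cdhr1*, *Tulp1*, *Rp1*, *Rp1l1*, *Impg1*, *Impg2*, *Prom1* and *Fscn2* by mean FPKM. The ranges of neighbours did not overlap from *Prph2* to *Rp1l1* or from *Prom1* to *Fscn2*, whereas *Rp1l1*, *Impg1*, *Impg2* and *Prom1* overlapped their neighbours. After LD the order was *Prph2*, *Rom1*, *Impg2*, *Cdhr1*, *Tulp1*, *Impg1*, *Rp1*, *Prom1*, *Rp1l1* and *Fscn2*, and *Impg2* had moved from place 8 to place 3. The ranges of LD neighbours overlapped except for *Rp1l1* and *Fscn2*, but within each of the 5 LD retinas the order of neighbours was the same, apart from *Impg1* and *Rp1*, which changed places in 1 retina.

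**Figure D4:**
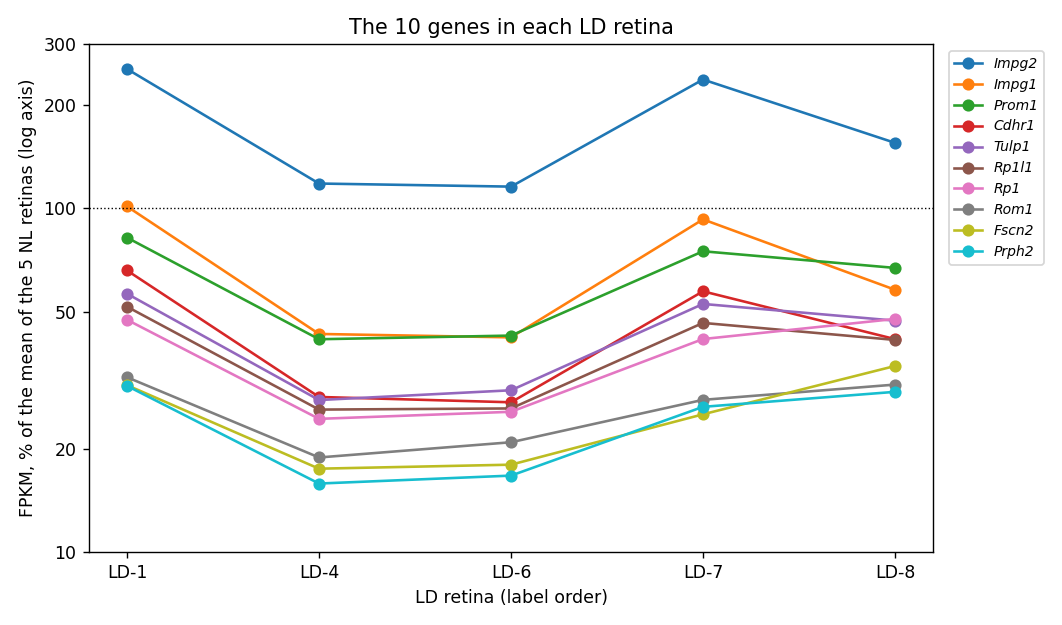
FPKM of the 10 genes in each LD retina as a percent of the mean of the 5 NL retinas (y axis, log scale). Lines join the values of a gene. All 10 lines dip at LD-4 and LD-6, from 15.8% for *Prph2* to 118% for *Impg2* in LD-4, and *Impg2* stays above 100% in every LD retina.

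The 10 genes varied together among the LD retinas. LD-4 and LD-6 were the lowest pair in all 10, and LD-1 was highest in all but *Rp1* and *Fscn2*, which were highest in LD-8. The highest LD value was 1.71 to 2.42 times the lowest, depending on the gene, against 1.08 to 1.72 times under NL. Several marker lists moved with this split, and their part in it was not tested. The rod markers summed to 1192 and 1271 FPKM in LD-4 and LD-6 and to 1922 to 2409 FPKM in the other 3. The 5 endothelial markers summed to 81.7 and 80.9 FPKM in LD-4 and LD-6 against 48.4 to 51.6 FPKM in the others, and the 6 Müller glia markers to 684 and 714 FPKM against 506 to 527 FPKM. The bipolar markers summed to 381 and 382 FPKM against 270 to 325 FPKM, the amacrine and ganglion cell markers to 225 and 228 FPKM against 182 to 210.3 FPKM, and the cone markers to 544 and 595 FPKM against 663 to 1027 FPKM. Most of the cone sum was *Gnb3*, at 502 to 885 FPKM in the LD retinas.

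Under NL the spread had another shape. *Prom1*, *Cdhr1*, *Rp1l1* and *Impg2* were highest in NL-1 and NL-8, and *Prph2*, *Rom1* and *Impg1* were lowest in these retinas. In NL-1 and NL-8 the 6 bipolar markers summed to 306 and 291 FPKM, against 353 to 356 FPKM in the other 3, and the rod markers to 9077 and 8068 FPKM, against 9158 to 9881 FPKM. The 8 pigment epithelium markers were highest in NL-8, with a sum of 148 FPKM. In the other NL retinas the sum was 50.7 to 89.9 FPKM and in the LD retinas 57.7 to 105 FPKM, and none of the 8 markers passed. The part of these in the spread was not tested.

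Markers of other cells changed with LD as well. Of the 6 myeloid markers 5 were higher after LD, with sums of 17.3 to 33.5 FPKM under NL and 45.6 to 115 FPKM after LD. Of the 6 cone markers 3 were lower (*Opn1sw*, *Arr3* and *Gnat2*) and 1 was higher (*Gnb3*, from a mean of 270.0 to 652 FPKM), with sums of 531 to 673 and 544 to 1027 FPKM. Of the 6 Müller glia markers 1 was lower (*Glul*, from a mean of 711 to 165 FPKM), with sums of 1048 to 1281 and 506 to 714 FPKM, while the median log2 fold change of the list was 0.03. None of the 6 bipolar, 6 amacrine and ganglion cell or 5 endothelial markers passed, and no list was at 0 in any retina. Whether these shifts contribute to the values of the 10 genes was not tested.

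Other proteins of the disc membrane were described from a list of 10 genes found in the table. Of these, 7 were lower after LD and none was higher, with a median log2 fold change of -1.63. *Cnga1*, a subunit of the rod cyclic-nucleotide channel of the plasma membrane, had a log2 fold change of -2.22 (limma, adjusted p = 2.32e-05), and *Gucy2f*, a guanylate cyclase, had -1.84 (adjusted p = 3.77e-05). *Cnga1* also serves as a rod marker, so the lists overlap. *Pcare*, an actin regulator at the site of disc formation, chosen after the values were seen, averaged 85.8 ± 8.86 FPKM in the NL and 110.1 ± 37.1 FPKM in the LD retinas (log2 fold change 0.29, adjusted p = 0.355).

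Of 11 genes of the connecting cilium and axoneme, 2 were lower and none was higher, at a median of -0.41. The 2 were *Fam161a*, a microtubule-binding protein of the cilium, from 77.5 ± 3.69 to 23.3 ± 7.29 FPKM (log2 fold change -1.79, adjusted p = 6.79e-05), and *Rpgrip1*, which anchors RPGR there, from 69.1 ± 9.15 to 23.8 ± 9.53 FPKM (log2 fold change -1.62, adjusted p = 7.71e-04, n = 5 each, limma). None of the 9 genes of actin assembly at the disc base passed, with a median of 0.32. The largest value among them was that of *Actb*, with 84.7 ± 4.15 FPKM in the NL and 165 ± 7.39 FPKM in the LD retinas (log2 fold change 0.96, limma, adjusted p = 6.41e-07), under 2-fold, followed by *Actg1* at 0.50 and *Arpc5* at 0.36. *Fscn2*, the actin bundler among the 10 genes, had -2.00 on the same scale. Whole-retina values do not show in which cells any of these genes changed.

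In the matrix around photoreceptors, 8 of 9 listed genes were tested, with 1 higher, 1 lower and a median of -0.03. *Cd44*, a hyaluronan receptor, was higher, from 1.85 ± 0.275 to 14.9 ± 1.70 FPKM (log2 fold change 2.95, adjusted p = 4.86e-08, n = 5 each, limma). Of 17 paralogues of the 10 genes, 15 were tested, with 2 higher, none lower and a median of 0.13. The 2 were *Dclk3*, a doublecortin-like kinase, from 0.711 ± 0.133 to 1.94 ± 0.149 FPKM (log2 fold change 1.34, adjusted p = 6.62e-05), and *Tulp3*, a tubby-like protein of primary cilia, from 3.19 ± 0.197 to 7.78 ± 2.49 FPKM (log2 fold change 1.21, adjusted p = 6.51e-04, n = 5 each, limma). Against *Tulp1* at 215 FPKM and *Rp1* at 136 FPKM under NL, both were minor transcripts.

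The protein-coding genes whose log2 values ran closest to those of *Prph2* over the 10 retinas, out of 12679 compared, were *Slc24a1*, *Gucy2f*, *Nrl*, *Gnat1* and *Rgs9bp*, with Pearson's r from 0.998 to 0.999. The points fall into an NL and an LD cluster, so r mainly describes the difference between the groups. *Slc24a1*, the rod cation exchanger, averaged 274 ± 13.4 FPKM in the NL and 63.5 ± 20.04 FPKM in the LD retinas (SD, n = 5 each), with a log2 fold change of -2.17. The others had -1.84 (*Gucy2f*), -2.64 (*Nrl*), -2.71 (*Gnat1*) and -1.94 (*Rgs9bp*), beside -2.13 for *Prph2* itself.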

How the data were processed

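The 10 samples of neural retina, 5 NL and 5 LD, were grouped by their labels. Per the labels, RNA was extracted with TRIzol and libraries were made with a TruSeq kit from 3 ug of total RNA. A sequencing company normalized the data. The submitters' processing notes name TopHat2 2.0.9, Bowtie2 2.0.6 and mm8. The deposited positions are nevertheless on GRCm38, since 53499 of the 54409 identifiers found in GENCODE release M21 have the same position there, including 9 of the 10 genes (the start of *Rom1* differs). The counting program, the annotation and the use of strand are not given in the sources used here. The paper and the labels name different sequencers.

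The authors deposited FPKM values. Multiplied by gene length, 100% of them were whole multiples of the worth of 1 read (tolerance 0.01), which gave the reads of each retina. The library size behind the deposited FPKM equalled the summed reads multiplied by 0.951 to 0.968 for NL and by 1.04 to 1.07 for LD. Genes that reached 0.1 FPKM in 5 or more retinas entered limma 3.58.1 (R 4.3.3, intensity trend, no block) as log2(FPKM + 0.1), which understates changes of low genes. P-values were adjusted by Benjamini-Hochberg over 24508 genes, and calls needed both an adjusted p below 0.01 and more than a 2-fold change. The fit relative to rod markers had no minimum fold. Ratios of 4 gene pairs set by role were compared by two-sided exact permutation tests, enumerated in Python 3.11.15 (numpy 2.4.6, pandas 2.3.3). Their p-values were adjusted over the 4 pairs, with a threshold of 0.05. The limma fit was tested on simulated data, and figures were drawn with matplotlib 3.10.9.

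The members and lists were chosen with earlier results of these data known. Named genes are the 10 members, overlapping genes, the 5 most like *Prph2* whose mean reached 1 FPKM under NL or LD, and up to 3 genes a list with the largest change among those called, or else among those tested whose mean reached that level. Alternatives changed the pseudocount (1 or 0.01), filter, scaling, trend, test, threshold, rod reference, replicate block and retinas included. Leaving out LD-4 and LD-6 together was added after the values were seen. Protein sequences were not used here, and some genes of the lists are not reported.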

Additional observations from a re-analysis of the deposited data

Results flagged for a closer look

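Of 32 groups of 5 values examined, 2 held a sample far from the others by Dixon's criterion (a gap above 0.71 of the range), where chance alone would give about 1.6. The *Prom1* to *Cdhr1* FPKM ratio was 0.307 in NL-1, against 0.232 to 0.240 in the other 4 NL retinas, and this value lay close to the lowest LD ratio of 0.314. NL-8 had 26.8 M reads, against 21.3 to 22.3 M in the other NL retinas.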

How the results depend on the processing

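None of the 10 genes changed direction under any of the 23 alternatives run for it, and *Prph2*, *Rom1*, *Rp1*, *Rp1l1* and *Fscn2* were called in all of them. Their log2 fold changes ranged from -2.23 to -1.63, -2.05 to -1.51, -1.58 to -1.13, -1.56 to -1.11 and -2.13 to -1.70. *Impg2* ranged from 0.60 to 1.09. All genes called numbered 1595, and 816 with a pseudocount of 1, 6818 at an adjusted p under 0.05 with no minimum fold and 772 with the replicate number as a block on 8 retinas (1076 without it). They numbered 1285 to 1505 when each retina was left out, with 7 of the 10 genes called each time. The 7 genes higher relative to the mean of the rod markers became 3 with their median level in each retina, a reference that fell less. Of the 24508 genes tested, 23122 were higher against the mean and 21581 against the median level. Leaving the library factor out moved the median of all genes from -0.012 to 0.109 and the split of the called genes to 1201 higher and 465 lower, from 1013 and 582. *Prph2* was then at -1.99 and *Impg2* at 0.88, with 7 genes called.

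The groups share numbers 1, 4, 7 and 8, but same-numbered retinas showed little shared deviation (correlations 0.057, 0.066, -0.012 and -0.089). Of these NL retinas only NL-4 correlated best with its own number, and NL-1 did almost equally with LD-1 and LD-7 (0.057 and 0.058). With so few retinas, some of them very close to each other, this cannot show whether the numbers mark pairs. The sources used here do not say what the number marks. With the replicate block on these 8 retinas 5 of the 10 genes were called, *Cdhr1* (adjusted p = 0.0239) and *Tulp1* (adjusted p = 0.0121) being lost, and without the block 6 were, *Cdhr1* being lost (adjusted p = 0.0132). Over all alternatives the adjusted p ranged from 8.01e-04 to 0.0239 for *Cdhr1*, 3.27e-05 to 0.0121 for *Tulp1*, 0.0130 to 0.249 for *Impg1* and 0.00435 to 0.107 for *Impg2*. An exact test of 4 pairs cannot go below p = 0.125.

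The log2 ratio of *Prph2* to *Rom1* was -0.11 after quantile normalization and on the 8 retinas with or without the replicate block, -0.14 with the closest pairs of retinas averaged, -0.0715 without LD-4 and LD-6, and -0.18 to -0.12 with each retina left out, with adjusted p from 0.0317 to 0.339 over all its alternatives by the exact test. That of *Prom1* to *Cdhr1* was 0.49 on the 8 retinas, with or without the replicate block, and 0.54 with pairs averaged, that of *Impg1* to *Impg2* -1.36 and -1.37, and the adjusted p of either was 0.25 with the block, 0.0571 without it and 0.114 with pairs averaged. Where 2 of the 4 ratios reach the smallest p of a design, as with the block and without it, the adjusted p is 0.25 and 0.0571, so that neither could pass there, and with pairs averaged it cannot go below 0.0571 in that way. That of *Rp1* to *Rp1l1* turned to 0.0201 with pairs averaged, a value that did not pass either. The cause of the shifts of *Prph2* to *Rom1* and *Rp1* to *Rp1l1* was not tested. Depth was at least 300 reads for each of the 10 genes in each retina.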

Other observations

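*Impg2* was compared with 12679 other protein-coding genes, a choice made after its values were seen. The genes whose log2 values ran closest to it over the 10 retinas included *Abcc1*, *Clip4*, *Cfap97* and *Ankrd29*, with Pearson's r from 0.980 to 0.987, lower than the values for *Prph2*. *Abcc1*, a transporter that exports glutathione conjugates, averaged 5.17 ± 0.576 FPKM in the NL and 8.44 ± 2.43 FPKM in the LD retinas (SD, n = 5 each), with a log2 fold change of 0.65 (adjusted p = 0.0197 in limma). *Ankrd29* was at 6.75 ± 1.38 and 13.9 ± 5.59 FPKM, with a log2 fold change of 0.97 (adjusted p = 0.0146). None of these 4 passed the threshold for a call.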
